A study of Rattus norvegicus with 50 samples.

Results

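Gene expression was compared in the lungs of rats that had breathed titanium dioxide (TiO2) nanoparticles, between 180 days (D180) and 90 days (D90) after the end of the exposure. The samples were chosen by their labels, which gave 5 exposed rats at D180 and 5 exposed rats at D90, that is 10 of the 50 arrays of the study. All rats were males of F344, an inbred strain, aged 12 weeks when exposed. They received an aerosol of TiO2 P25 at 10 mg/m3 through the nose, 6 hours a day and 5 days a week during 4 weeks. The 10 control rats of D90 and D180, 5 at each day, breathed filtered air through the nose on the same schedule and served as the reference for the passage of time. Exposed rats at D180 were also 90 days older than those at D90, so that age and time since exposure cannot be told apart among exposed rats alone. RNA came from the accessory lobe of the lung, a small lobe that holds airways, alveoli, vessels and immune cells together. In such whole tissue, fewer cells of a type and less RNA per cell cannot be told apart.

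TiO2 P25 is a poorly soluble powder. Inhaled particles of this kind are taken up mainly by alveolar macrophages, the resident phagocytes of the airspaces, and can stay in the lung for months. The acute response to them involves chemokines that draw in neutrophils and monocytes, acute phase and complement proteins, and remodelling of epithelium and matrix. A lung sampled long after exposure is therefore a place to look for genes that return to control levels, genes that stay high, and genes that move with age.

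Each rat had its own one-colour array. On the 10 exposed arrays the median processed signal ran from 337 to 473 fluorescence units, and 73.4% to 84.5% of the gene spots were well above background. On the 10 control arrays these ranges were 214 to 464 and 73.4% to 83.5%. Arrays of a group correlated across genes at 0.985 or above, genes not being independent replicates. The 20 arrays lay on 3 slides, each with exposed and control rats of both days. A list of 9 lung identity genes (surfactant, alveolar and airway markers) differed little between rats, with a mean level from -0.07 to 0.09 on the log2 scale around the mean of the 20 arrays. The animal number of 1 exposed rat of D180, replicate 2, lay among the numbers of control rats. Its mean level of 104 genes that were over-expressed early after exposure, described below, was 0.41, while the other 4 of its group lay at 0.25 to 0.37, and it was above the 10 control rats, whose highest was -0.24.

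One exposed lung of D180, replicate 4, stood apart from all the others by its skeletal muscle genes. Myh1, a fast myosin heavy chain, was at 11.31 on the log2 scale in this rat and at 4.54, 4.32, 6.72 and 4.72 in the other 4 exposed rats of D180. Atp2a1, the calcium pump of fast muscle, was at 11.94 there and between 6.64 and 7.87 in the other 4. The mean of the 13 skeletal muscle genes tested was 3.77 above the mean of the 20 arrays in this rat, and between -0.45 and 0.24 in the 19 others. Its 13 cardiac muscle genes were also the highest, at 0.71 against at most 0.35 in any other rat. The gene counts below are therefore given with and without this array where it matters.

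Very few genes differed between D180 and D90 in exposed lungs. Of 24428 genes tested, 4 were differentially expressed (DEGs) at an adjusted p under 0.05 and at least 1.5-fold, that is 0.0164% of the genes, with 3 over-expressed (0.0123%) and 1 under-expressed (0.00409%) at D180. Wnk2, a kinase of the family that regulates ion transport, rose 2.18-fold. Ctxn3, a small membrane protein first known from kidney and brain, rose 1.80-fold. Mlc1, a membrane protein best known from astrocytes, rose 1.73-fold. Pappa, a metalloproteinase that cleaves insulin-like growth factor binding proteins, fell 1.61-fold. The test was limma with Benjamini-Hochberg adjustment and the slide as a term, and each of these genes had 1 probe that was well above background on all 20 arrays.

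Wnk2 was at 5.17, 5.34, 4.97, 5.55 and 5.49 in the 5 exposed rats of D90 and at 6.35, 6.00, 6.74, 6.21 and 6.53 in those of D180, as normalized log2 level. The groups did not overlap. The log2 change was 1.12 (SE 0.11, 95% interval 0.88 to 1.36, adjusted p = 0.000987 by limma). It stayed past both limits when any 1 of the 10 exposed arrays was left out, with a change from 1.02 to 1.20. The call ended with 3 other settings. The change was 0.48 with normexp background correction and 0.58 with the authors' value table, both under 1.5-fold, and a fit of the 10 exposed arrays alone called no gene. In control rats the change over the same days was 0.33 (adjusted p = 0.28 by limma), and the difference between both changes was 0.79 (adjusted p = 0.20). Exposed lungs of D90 lay 0.55 below their controls (adjusted p = 0.014), while at D180 they lay 0.25 above (adjusted p = 0.32).

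Pappa was at 7.48, 7.77, 7.98, 7.29 and 7.02 in exposed rats of D90 and at 6.95, 7.09, 7.04, 7.13 and 6.47 in those of D180. The groups overlapped, through the lowest rat of D90. The log2 change was -0.69 (SE 0.11, 95% interval -0.92 to -0.46, adjusted p = 0.043 by limma with the slide as a term). It was -0.02 in control rats, which lay between 6.37 and 7.27 over both days. Exposed lungs exceeded controls by 0.70 at D90 (adjusted p = 0.0021) and by 0.03 at D180 (adjusted p = 0.95). Within each of the 3 slides the change was -0.74, -0.66 and -0.68, and with no slide term in the fit it was -0.57 (adjusted p = 0.65). Pappa was over-expressed in exposed lungs at D0, D3 and D28 as well, so that the exposed lungs of D180 were the ones in which its mean lay near that of the controls.

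Ctxn3 was at 5.82, 5.09, 5.73, 5.90 and 5.39 in exposed rats of D90 and at 6.55, 6.65, 6.38, 6.39 and 6.14 in those of D180, with no overlap. Mlc1 was at 7.96, 7.29, 8.09, 8.28 and 8.13 at D90 and at 8.97, 8.25, 8.66, 8.39 and 8.93 at D180, where the highest rat of D90 lay above the lowest of D180. The log2 change was 0.85 for Ctxn3 and 0.79 for Mlc1 (adjusted p = 0.047 for both by limma). In control rats Ctxn3 had a change of 0.67 (95% interval 0.39 to 0.96, adjusted p = 0.10) and Mlc1 of 0.32 (95% interval 0.05 to 0.59, adjusted p = 0.36). The difference between the exposed and the control change was 0.17 for Ctxn3 and 0.47 for Mlc1, with adjusted p of 0.95 and 0.66. Neither gene differed from controls past the limits at D90 or D180. Leaving out any 1 of the 10 exposed arrays ended the call of Mlc1. The calls of Pappa and of Ctxn3 ended for 9 of the 10 arrays. Without the array with muscle genes, Wnk2 was the single DEG.

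**Figure D1:**
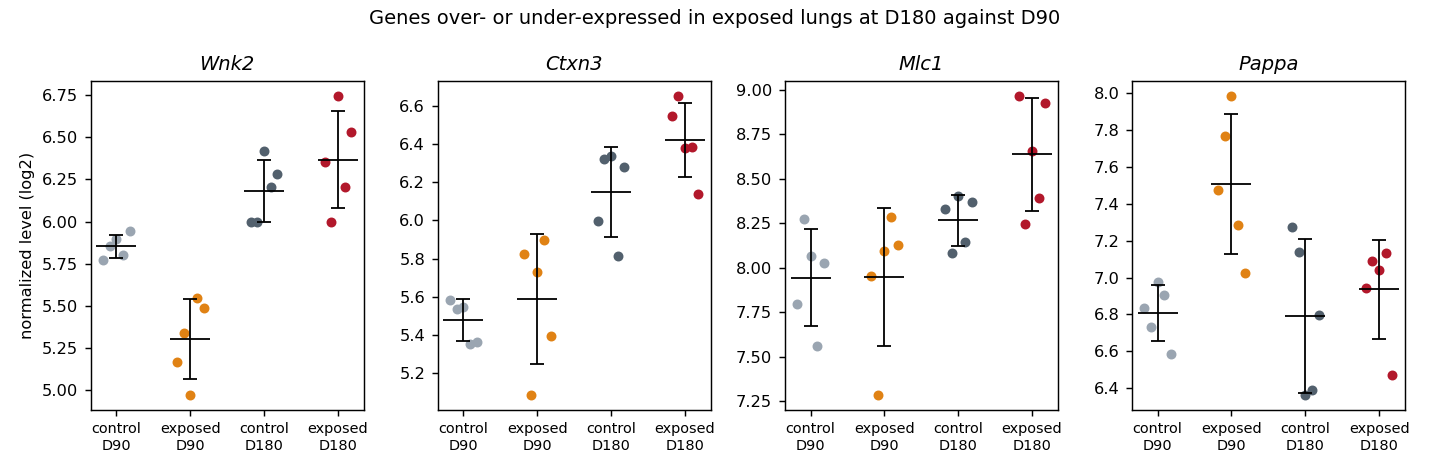
Normalized log2 level of the 4 DEGs in each rat, by group, with 5 rats a group (points) and the mean with its SD (bar and whiskers). For Wnk2 the 5 exposed rats of D180 lie between 6.00 and 6.74, all above the 5 exposed rats of D90, and for Pappa the exposed rats of D90 spread from 7.02 to 7.98.

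A further 4 genes passed the adjusted p of 0.05 but changed by less than 1.5-fold, which made 8 genes (0.0327%). Artn, a ligand of the GDNF family that acts on sensory neurons, was 0.46 higher at D180, with levels of 11.01 to 11.13 at D90 and of 11.35 to 11.73 at D180 (adjusted p = 0.013 by limma). Its control rats ranged from 11.31 to 11.50, a range that the D90 rats lay below. Ephx4, an epoxide hydrolase family member, was 0.43 higher (adjusted p = 0.043) and was below controls by 0.62 at D90 and by 0.32 at D180. A transcript named in the files only as BC091254 was 0.37 lower (adjusted p = 0.013). Kcnj1, a potassium channel of kidney, was the fourth, but it was not well above background on any of the 10 exposed arrays, so that no size is given. Hsd17b7, an enzyme of cholesterol and steroid synthesis, and Tmeff2 completed the 10 genes of lowest p, with changes of -0.27 and 0.53 (adjusted p = 0.054 and 0.058). In control rats Hsd17b7 had a change of -0.21 and Tmeff2 of 0.43.

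**Figure D2:**
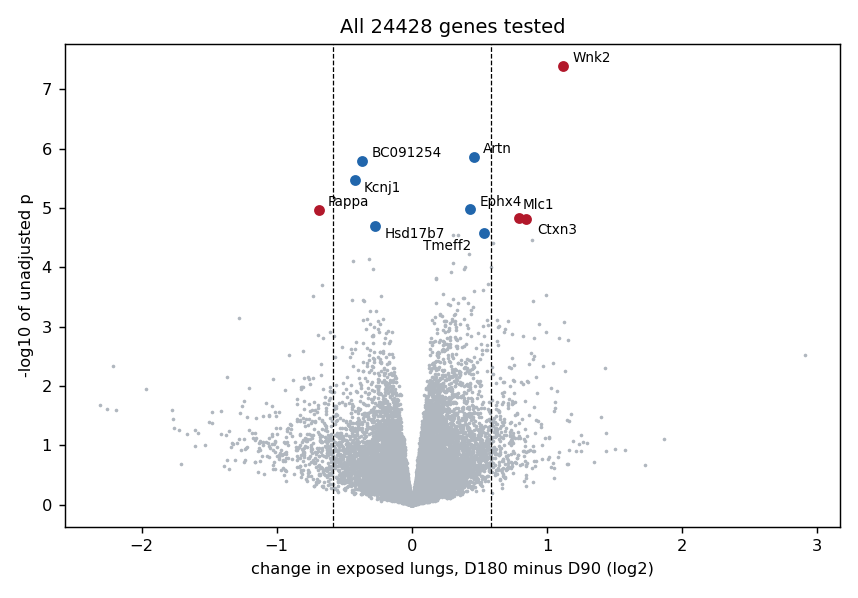
Each point is 1 of the 24428 genes, with the log2 change in exposed lungs from D90 to D180 on the horizontal axis and the -log10 of the unadjusted limma p on the vertical axis. Dashed lines mark 1.5-fold. The 4 DEGs are red and the other genes of the 10 lowest p are blue, and Wnk2 lies apart at the top.

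The precision of the comparison set what could be seen. The median SE of a change was 0.10 and the 95% interval reached a median of 0.21 to either side on the log2 scale. Of 19206 genes well above background on at least 3 arrays of both exposed groups, 16884 (87.9%) had an interval that lay within 1.5-fold in either direction. At an unadjusted p under 0.05 there were 1703 genes (6.97%), of which 1074 were higher (4.4%) and 629 lower (2.57%) at D180. These shares are the background for the gene groups that follow. In 295 genes (1.21%) the 5 rats of D180 did not overlap with the 5 of D90.

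Control lungs, compared over the same days, gave a like number of calls. There were 3 DEGs (0.0123%) and 2684 genes (11%) at an unadjusted p under 0.05. Cxcl2, a chemokine for neutrophils, fell by 1.46 in control rats, from 10.30 to 11.94 at D90 to 9.45 to 9.98 at D180 (adjusted p = 0.035 by limma). Its exposed rats lay between 9.72 and 10.41 at both days, with a change of 0.10. Dact1, a regulator of Wnt signalling, fell by 0.80 in control rats and was 0.41 higher in exposed rats at D180 (adjusted p = 0.38). Sept12, the third, was not well above background on any exposed array. In control rats of D180 its median log2 level was 2.96, with replicate 5 apart at 3.34. The test of the difference between the exposed and the control change called no gene by limma, with 1515 genes (6.2%) at an unadjusted p under 0.05 and a lowest adjusted p of 0.056, that of Dact1.

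The genes that marked the early response lay above controls at both late days, with a median change near 0 between D90 and D180. They were the 104 genes over-expressed in exposed lungs at each of D0, D3 and D28, chosen on the 30 arrays of those days, of which 1 array was alone on its slide and so carried no weight. All 104 were tested at the late days. Their median log2 change in exposed lungs was -0.01, against 0.01 over all genes, with 49 higher and 55 lower at D180. Pappa was the 1 gene among them that was called. The mean level of the 104 genes was 0.20 to 0.46 in exposed rats of D90 and 0.25 to 0.41 in those of D180, around the mean of the 20 arrays. It was -0.42 to -0.24 in control rats of D90 and -0.42 to -0.31 in those of D180. No exposed rat overlapped with a control rat.

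Against controls, the 104 genes had a median log2 difference of 0.51 at D90 and 0.49 at D180. At D90, 100 of them were higher in exposed lungs in the mean and 29 were over-expressed past both limits, where 0.319% of all genes were. At D180, 102 were higher and 25 were over-expressed, where 0.34% of all genes were. There were 20 genes called at both days and 70 at neither. Orm1, an acute phase plasma protein, had the largest difference. It was at 7.27, 7.39, 7.26, 8.84 and 7.92 in exposed rats of D90 and at 7.72, 8.08, 7.38, 7.49 and 8.12 in those of D180, while the 10 control rats lay between 3.17 and 5.44. The exposed groups overlapped over nearly their whole range, with a change of 0.02 (95% interval -0.77 to 0.81).

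Several of these genes belong to macrophages and secretory epithelium. Retnla, a marker of alternatively activated macrophages and epithelium, was 1.80 above controls at D90 and 2.26 at D180, with a change of -0.21 (95% interval -0.59 to 0.17) in exposed rats. Spp1, osteopontin, a product of lipid-laden and profibrotic macrophages, was 1.31 and 2.14 above controls, with a change of -0.01 in exposed rats. Its control rats had a change of -0.84 (unadjusted p = 0.0076), so that the larger difference at D180 came with a lower control level. Lpo, the airway lactoperoxidase, was 2.18 and 2.46 above controls and had a change of 0.18. The kininogen gene Kng1 was 1.68 and 1.92 above controls and had a change of 0.17. Ccl1, a ligand of the chemokine receptor CCR8, was 1.94 and 2.78 above controls and had a change of 0.37 (95% interval -0.23 to 0.98). For each of these the difference from controls passed both limits at both days, and the change within exposed lungs did not pass.

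A second list held 17 genes that an earlier look at these same arrays had found over-expressed at every day. The direction, the calls and the size of its differences from controls are therefore no independent evidence. Of the 17 genes, 16 were called higher at D90 and 16 at D180, counts largely set by that choice (0.319% and 0.34% over all genes). Slc7a11, a cystine transporter, was the exception at both. Their median difference from controls was 1.31 at D90 and 1.92 at D180. In exposed rats the median change was 0.15 with no gene called, and in control rats it was -0.15. Scn10a, a sodium channel of sensory neurons, showed this most: it was 0.29 higher in exposed lungs at D180 and 0.92 lower in controls (unadjusted p = 0.00019), and the difference of both changes was 1.20 (adjusted p = 0.25 by limma).

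**Figure D3:**
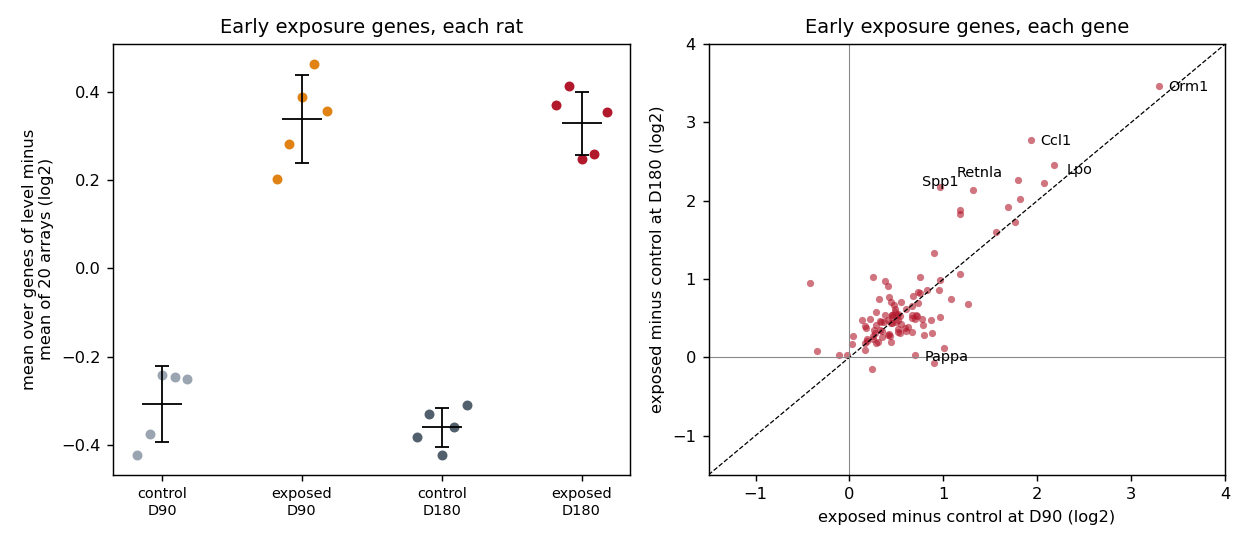
Left, mean level of the 104 early exposure genes in each rat, in log2 units around the mean of the 20 arrays, with the group mean and SD over 5 rats. Right, for each of the 104 genes the log2 difference between exposed and control lungs at D90 (horizontal) and D180 (vertical), with the dashed line of equality. Exposed rats of both days lie between 0.20 and 0.46, above all control rats, and Pappa lies at 0.70 on the horizontal axis and at 0.03 on the vertical one.

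Of the gene lists, cholesterol synthesis had the lowest median change in exposed lungs. These enzymes build sterols from acetyl units and are switched on together by the transcription factor SREBP2 when cells sense little cholesterol. In lung they are active in alveolar type 2 cells, which secrete surfactant lipid. All 18 genes tested had a lower mean at D180, with a median log2 change of -0.20, and 12 of 18 had an unadjusted p under 0.05, where 2.57% of all genes were lower at that limit. None passed the adjusted limit, the lowest adjusted p being 0.27. In 8 of 18 genes the 5 rats of D180 did not overlap with the 5 of D90, where 1.21% of all genes did not. In control rats the median change was -0.10, with 4 of 18 lower at an unadjusted p under 0.05, where 5.78% of all genes were, and the difference of changes had a median of -0.09.

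Among single enzymes of this group, named here after their values were seen, Sqle, the squalene epoxidase, was at 12.53, 12.47, 12.53, 12.46 and 12.49 in exposed rats of D90 and at 12.20, 12.11, 12.04, 12.15 and 12.22 in those of D180. The 5 rats of each day were close together and the groups did not overlap. Cyp51, the lanosterol demethylase, was at 11.08, 10.91, 11.01, 11.04 and 10.83 at D90 and at 10.76, 10.78, 10.72, 10.67 and 10.50 at D180, also with no overlap. The change was -0.36 for Sqle and -0.31 for Cyp51, with adjusted p of 0.44 and 0.27. Cyp51 had a change of -0.01 in controls. Hmgcs1, which makes the substrate of the rate-limiting step, had a change of -0.33 in exposed and of -0.35 in control rats. Srebf2, the gene of the factor itself, was at -0.03. Against controls, the mean of the 18 genes was highest in exposed lungs of D90, at 0.11 to 0.22 around the mean of the 20 arrays, with control rats of D90 at -0.06 to 0.12, control rats of D180 at -0.26 to 0.07 and exposed rats of D180 at -0.10 to 0.0030.

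Interferon-stimulated genes had mostly higher means at D180. They encode antiviral proteins that cells make when they sense interferon, and many share a short promoter element, the interferon-stimulated response element. Of 19 genes tested, 17 had a higher mean at D180, with a median log2 change of 0.18, and 9 had an unadjusted p under 0.05, where 4.4% of all genes were higher at that limit. None passed the adjusted limit, the lowest adjusted p being 0.27. In control rats the median was -0.03 and no gene had an unadjusted p under 0.05. The difference of changes had a median of 0.16. It had 5 of 19 genes at an unadjusted p under 0.05, where 6.2% of all genes were, and none passed the adjusted limit. Rsad2, viperin, was at 10.98, 11.14, 10.91, 11.18 and 11.06 in exposed rats of D90 and at 11.31, 11.50, 11.20, 11.42 and 11.51 in those of D180, with no overlap and a change of 0.32 (adjusted p = 0.28). Oas1a, an antiviral RNA sensor, had a change of 0.31 and Isg15, a ubiquitin-like modifier, of 0.30. The 1 rat that lay lowest was exposed replicate 3 of D90, at -0.23 for the mean of the list, while the other 4 of its group lay at -0.06 to -0.03. Without it, 5 of the 19 genes had an unadjusted p under 0.05 and the median was 0.15. Against controls the median difference was -0.10 at D90 and 0.09 at D180, with no gene called at either day.

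Promoters of this group are shown because most of its means lay in 1 direction, 17 of 19, and many of its genes share a known element. The table of RefSeq promoters for the assembly GRCr8 held 11 of the 19 genes. The letters GAAA, present 2 times in a row with 2 bases of any kind between them and searched on both strands in the 250 bases before the start site, were found in 9 of these 11 and in 3.41% of all 33469 promoters of that length. The 4 promoters below are those that hold a match and whose gene had an unadjusted p under 0.05, read 5′ to 3′ on the strand of the gene, with matches in capitals. In Oas1a 2 matches overlap.
Oas1a, chr12:41330216-41330465, plus strand: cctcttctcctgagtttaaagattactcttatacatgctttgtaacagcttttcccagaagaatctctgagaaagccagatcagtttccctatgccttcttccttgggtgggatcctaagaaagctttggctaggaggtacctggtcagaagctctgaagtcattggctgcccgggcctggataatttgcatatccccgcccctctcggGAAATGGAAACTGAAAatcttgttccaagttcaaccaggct
Rsad2, chr6:48788121-48788370, minus strand: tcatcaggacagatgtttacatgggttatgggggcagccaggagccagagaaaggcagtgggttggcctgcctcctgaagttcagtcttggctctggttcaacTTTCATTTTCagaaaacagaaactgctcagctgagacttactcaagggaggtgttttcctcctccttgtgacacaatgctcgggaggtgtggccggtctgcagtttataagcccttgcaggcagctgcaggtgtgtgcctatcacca
Ifit3, chr1:241527076-241527325, plus strand: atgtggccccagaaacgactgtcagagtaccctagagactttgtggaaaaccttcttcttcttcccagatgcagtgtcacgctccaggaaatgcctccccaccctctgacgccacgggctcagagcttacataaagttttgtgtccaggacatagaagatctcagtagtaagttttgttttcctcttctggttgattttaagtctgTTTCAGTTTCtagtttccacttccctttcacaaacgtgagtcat
Irf7, chr1:205800024-205800273, minus strand: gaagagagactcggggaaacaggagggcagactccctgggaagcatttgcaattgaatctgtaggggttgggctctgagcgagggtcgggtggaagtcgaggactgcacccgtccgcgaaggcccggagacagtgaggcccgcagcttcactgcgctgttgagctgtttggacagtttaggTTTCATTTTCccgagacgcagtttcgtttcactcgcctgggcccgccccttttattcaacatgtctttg
Mx1 and Oasl had no match in this window, and both had an unadjusted p under 0.05 (0.0053 and 0.018 by limma). The part of the element in these changes was not tested. Ifi44, Ifi27, Cxcl10, Gbp2 and Gbp5 held matches too and had changes of 0.12, 0.04, 0.21, 0.07 and -0.09, with unadjusted p above 0.05. For cholesterol synthesis the letters TCACNCCAC, one form of the sterol element, were in none of 13 promoters at hand and in 0.974% of all.

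Extracellular matrix genes had mostly lower means at D180 in exposed and in control lungs. Of 24 genes tested, 20 had a lower mean at D180 in exposed rats, with a median of -0.10. Of the 24, 9 were lower at an unadjusted p under 0.05, where 2.57% of all genes were. In control rats the median was -0.10 as well, with 8 lower at that limit, where 5.78% of all genes were. Col1a1 and Col3a1, the fibrillar collagens, had changes of -0.30 and -0.28 in exposed and of -0.37 and -0.35 in control rats. Loxl2, a collagen cross-linking enzyme, had a change of -0.29 and -0.24. The differences between exposed and control changes for these 3 genes lay between -0.05 and 0.07. Eln, elastin, which was lower than in controls by 1.36 at D90 and 1.07 at D180, had a change of 0.21 (95% interval -0.13 to 0.54) in exposed rats. None of the 24 genes was called between the days.

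Immediate early genes, mostly transcription factors that cells switch on within minutes of a stimulus, were highest in control rats of D90. In exposed rats the 15 genes had a median change of 0.23, with 1 higher at an unadjusted p under 0.05. Without the array with muscle genes the median was 0.29 with 3 higher, and with no slide term it was 0.14 with 0 higher and 1 lower. In control rats the median was -0.52, with 10 of 15 lower at that limit, where 5.78% of all genes were. The difference of changes had a median of 0.71 and 11 of 15 genes an unadjusted p under 0.05, where 6.2% of all genes had, and none passed the adjusted limit. Fos was at 9.59 to 10.36 in control rats of D90 and at 7.17 to 9.39 in those of D180. In exposed rats it was at 7.91 to 8.95 at D90 and at 7.51 to 10.15 at D180. The mean of the 15 genes was 0.21 to 0.71 in control rats of D90 and -0.37 to 0.02 in exposed rats of D90, with no overlap, whereas both groups of D180 covered -0.61 to 0.56. Their part in the differences of changes of other genes, such as Cxcl2, was not tested.

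**Figure D4:**
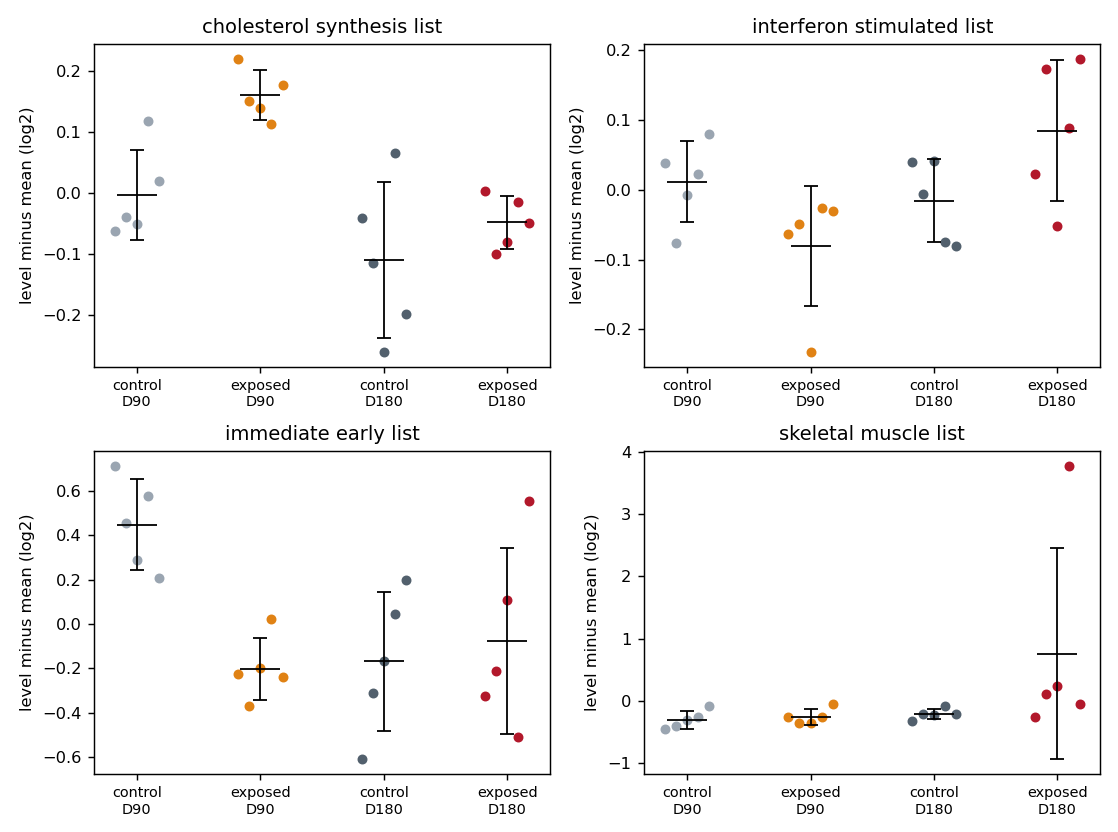
Mean level of 4 gene lists in each rat, in log2 units around the mean of the 20 arrays, with the group mean and SD over 5 rats. Cholesterol synthesis is highest in exposed rats of D90 at 0.11 to 0.22, the immediate early list is highest in control rats of D90, and 1 exposed rat of D180 lies at 3.77 for skeletal muscle genes.

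Chemokine and cytokine genes had small positive medians within exposed lungs and negative ones within control lungs. Of 19 CC chemokines, 15 CXC chemokines and 18 cytokines, the median changes in exposed rats were 0.03, 0.15 and 0.08. At an unadjusted p under 0.05 there were 2, 2 and 0 genes, where 6.97% of all genes were, and none was called. Of the 2 CC chemokines at that limit, 1 was higher and 1 lower, and the 2 CXC chemokines were higher. A higher mean at D180 was found in 12, 11 and 14 of the genes of these lists. In control rats the medians were -0.11, -0.08 and -0.12, with 6, 6 and 7 genes lower at D180 at an unadjusted p under 0.05, where 5.78% of all genes were, Cxcl2 being the 1 called. The difference of changes had medians of 0.10, 0.22 and 0.18, with 4, 6 and 7 genes at an unadjusted p under 0.05, where 6.2% of all genes were, and none called. The mean in exposed lungs lay above that of controls for 6, 3 and 6 of these genes at D90 and for 12, 9 and 15 at D180. Other inflammation lists had medians from -0.07 to 0.03 in exposed lungs. Medians for acute phase proteins, complement and neutrophil genes were 0.02, -0.04 and -0.07. For alveolar macrophage, lipid-associated macrophage and lysosome genes they were 0.01, near 0 and -0.02. For B and plasma cell, T and NK cell and MHC class II genes they were near 0, -0.01 and -0.04. Of 10 MHC class II genes, 9 had a lower mean at D180. Of the 10, 2 were lower at an unadjusted p under 0.05, where 2.57% of all genes were. Mast cell and eosinophil genes had a median of 0.03 in exposed and 0.42 in control rats, with 5 of 15 higher at D180 in controls at an unadjusted p under 0.05, where 5.21% of all genes were. Their difference of changes had a median of -0.44. At an unadjusted p under 0.05 there was 1 of 15 genes, where 6.2% of all genes were. The mean of the list was 0.71 in control replicate 3 of D180 and -0.12 to 0.22 in the others of its group. Of the genes in these 13 lists none was called between D90 and D180 in exposed lungs.

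The clock genes differed from controls at both late days and not past the limits between them. The molecular clock is a loop in which Arntl (Bmal1) and its partners drive Per, Cry, Nr1d and Dbp, whose products rise and fall over the day. Of 10 genes of the negative arm and outputs, 6 were over-expressed in exposed lungs at D90 and 6 at D180, where 0.319% and 0.34% of all genes were. Their median differences were 1.08 and 0.84. Of 6 genes of the positive arm and of those that peak with it, 4 were under-expressed at both days, where 0.184% and 0.127% of all genes were, with medians of -0.82 and -0.70. Dbp was 3.35 above controls at D90 and 2.96 at D180. Between the days within exposed lungs no clock gene was called. Arntl had a change of 0.51 (95% interval 0.19 to 0.82, adjusted p = 0.38) and Dbp of -0.45 (95% interval -0.94 to 0.04). The hour of tissue collection is not given in the labels, and its part in these differences was not tested.

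Genes of lung cell types and of metabolism had small median changes in exposed lungs. Alveolar type 2 genes had a median change of -0.02 and alveolar type 1 genes of 0.10. Of 12 alveolar type 2 genes, 10 had a lower mean at D180. Of the 12, 2 were lower at an unadjusted p under 0.05, where 2.57% of all genes were. All 8 alveolar type 1 genes had a higher mean at D180. Of these, 3 were higher at an unadjusted p under 0.05, where 4.4% of all genes were. Medians for club and goblet cell, ciliated, endothelial and mesothelial genes were 0.01, near 0, 0.08 and -0.01. For fatty acid synthesis, fat oxidation and the antioxidant targets of Nrf2 they were -0.03, 0.06 and -0.04. Of 13 Nrf2 targets, 3 were lower and 1 higher at an unadjusted p under 0.05, where 2.57% and 4.4% of all genes were. For cell cycle, senescence and heat shock genes the medians were -0.02, near 0 and 0.01, and for glucocorticoid-induced genes -0.02. In control rats glucocorticoid-induced genes had a median of 0.29, with 5 of 14 higher at an unadjusted p under 0.05, where 5.21% of all genes were. Cell cycle genes had one of -0.16, with 7 of 25 lower, where 5.78% were. For the difference of changes, 6 of 14 and 5 of 25 had an unadjusted p under 0.05, where 6.2% of all genes had, and none was called. Fat, thymus and lymphoid organ, and nerve genes lay near 0, at 0.02 and at -0.01. Red blood cell genes had a median of 0.18, with 5 of 11 higher at an unadjusted p under 0.05, where 4.4% of all genes were. The number of higher genes was 3 without the array that carried muscle genes, 3 without exposed replicate 5 of D90 or exposed replicate 3 of D180, and 2 without exposed replicate 3 of D90 or exposed replicate 5 of D180. Hba1 and Hbb, the globins, had changes of 0.18 and 0.17 and were below controls by 0.20 and 0.27 at D90. How much blood each piece of lung held was not measured. Skeletal muscle genes had a median of 0.76 with all arrays and of 0.19 without the array that carried muscle genes. All 13 had a higher mean at D180 in both cases, and none was called in either case.

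**Figure D5:**
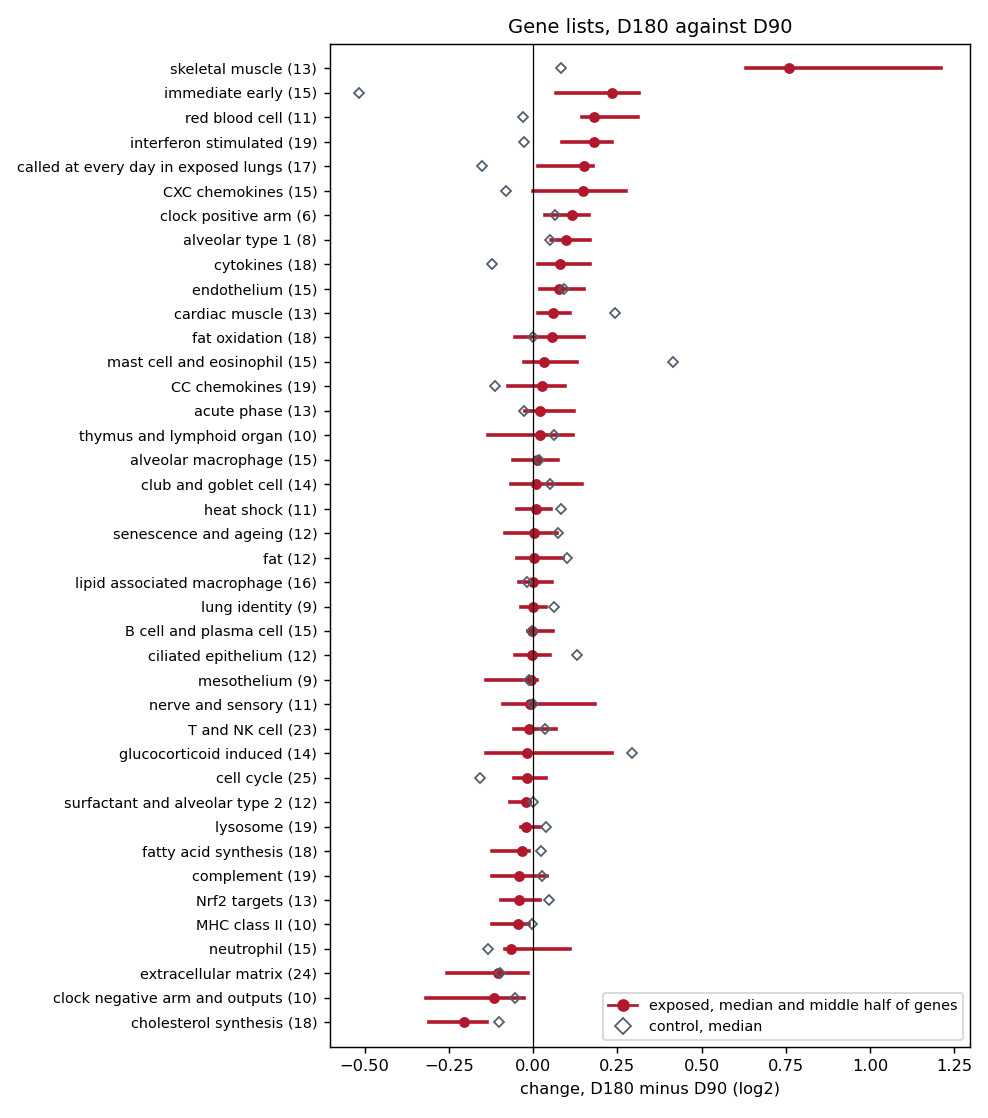
Median log2 change from D90 to D180 of each gene list in exposed lungs (filled circles, with a line over the interquartile range of its genes) and in control lungs (open diamonds), with the number of genes tested in parentheses. Cholesterol synthesis lies lowest in exposed lungs at -0.20 and interferon-stimulated genes at 0.18, while the immediate early list lies at -0.52 in controls. The median of the skeletal muscle genes was 0.76 with all rats and 0.19 without 1 exposed rat of D180. In both cases all 13 genes had a higher mean at D180.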

How the data were processed

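RNA from the accessory lung lobe of each rat (100 ng, Cy3) was hybridised to 1 Agilent array. The authors deposited scanner files with the intensity of each spot on a linear scale, read per the file headers by Agilent Feature Extraction 11.0.1.1, whereas the study's methods name a later release. The processed signal in them is corrected for background and spatial trend but was never scaled across arrays. A value table was deposited by the authors too, one of 58753 rows, which is linear and quantile normalized by its values, with column medians of 408 to 411 and a rank correlation with the mean signal of at least 0.999.

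Here, control spots and spots marked as not uniform or as outliers (449 to 872 an array) were dropped, and spots kept for each of 30367 probes were averaged as log2 and quantile normalized over 50 arrays. Probes entered the fit if on at least 5 of the 20 late arrays they exceeded the 95th percentile of negative control spots (28614 probes), and probes of a gene were averaged, which gave 24428 genes, 18980 with a symbol. Spreadsheet damage to the names of 84 spots, seen in 22 files, was repaired from the intact files. The number of arrays limits the precision. limma 3.58.1 in R 4.3.3 was fitted to the 20 arrays of D90 and D180, with a mean for each of 4 groups and the slide as a term, which differs from the study's unnamed batch terms. P-values are two-sided with Benjamini-Hochberg adjustment, and DEGs needed an adjusted p under 0.05 and at least 1.5-fold. Named genes were all DEGs and the 10 genes of lowest p. Genes named from lists were picked after their values were seen. The samples and the 40 gene lists were chosen with earlier results of these data known. The lists were written from general knowledge, except that of the 17 genes over-expressed at every day, which came from these arrays. Of the listed genes, 20 symbols were not found on the array and 6 were filtered, and these are not reported. Samples are separate rats by the labels. The fit was tested on simulated data. Alternatives changed the slide term, the arrays fitted, the normalization, the background correction, the value table, the filters, the probe rule, the call rule and each array in turn.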

Additional observations from a re-analysis of the deposited data

Results flagged for a closer look

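Of 216 groups of 5 rats looked at, for the named genes and the gene lists, 14 held a rat far from the other 4 by Dixon's ratio (gap over range, limit 0.71 for 5 rats), where chance gives about 1 in 20. The ratio was highest for the skeletal muscle list in exposed rats of D180, at 0.875, where replicate 4 lay at 3.77 and the group median was 0.11. In the same group the acute phase list had a ratio of 0.799, with the same rat lowest at 0.12, and Pappa had a ratio of 0.717, with replicate 5 lowest at 6.47. In exposed rats of D90 the ratio was 0.838 for the alveolar macrophage list (replicate 4), 0.825 for the interferon-stimulated list and 0.815 for the mesothelium list. Replicate 3 was the rat apart in both of the latter, at -0.23 and 0.42.

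In control rats of D90 the ratio was 0.75 for Artn, 0.827 for mast cell and eosinophil genes, 0.732 for fat oxidation genes, 0.757 for ciliated epithelium genes and 0.746 for thymus and lymphoid organ genes. In control rats of D180 it was 0.783 for Sept12, 0.738 for the clock positive arm and 0.727 for neutrophil genes. What set these rats apart was not tested.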

How the results depend on the processing

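The 4 DEGs between D180 and D90 in exposed lungs became 1 with no slide term, 1 with the replicate block, 2 with quantile normalization over the 20 late arrays (Wnk2 and Kcnj1, which was not well above background on any exposed array), 2 with 75th percentile scaling, 1 with normexp (offset 50), 1 with the authors' value table, 1 with no filter on dim probes and 0 with the 10 exposed arrays alone (1792 genes at an unadjusted p under 0.05). With all 50 arrays there were 5, of which Wnk2 and Pappa were among the 4 and Cftr, Klk6 and Sfxn2 were not. The 4 became 8 with no fold limit and 215 at an unadjusted p with the fold limit. Wnk2 was called under each of these fits but 3. With normexp and with the authors' table its change was 0.48 and 0.58, under 1.5-fold (adjusted p = 0.0035 and 0.0044 by limma), and Mlc1 was the 1 gene called, and the third exception was the fit of exposed arrays alone. The cause of these shifts was not tested. Leaving out 1 exposed array at a time gave 1 to 3 DEGs. The control comparison gave 0 with the replicate block, 22 with all 50 arrays, 1 with 75th percentile scaling, 9 with no fold limit and 480 at an unadjusted p with the fold limit, and 0 to 5 without 1 control array. The difference of changes gave 6 with all 50 arrays, 2 with normexp, 2 with the authors' table, 1 (Dact1) with probes well above background on at least 5 arrays, 422 at an unadjusted p with the fold limit, and 0 to 1 without 1 array. The replicate block ended the calls of Ctxn3, Mlc1 and Pappa. Nothing in the labels pairs rats by number, and exposed rats of D90 and D180 with the same number had deviations correlated at -0.01 to 0.22 across genes, with 3 of 5 pairs over 0.1 and 2 of 5 rats closest to their own number. Slide was not removed from these deviations, and the exposed rats of both days with numbers 1, 2, 3 and 5 shared a slide. Slide and number were therefore not told apart here. The median change of the 104 early exposure genes ran from -0.05 to 0.0047 over the other processing settings. Added after the data were seen, fits without a slide term or with other scalings left the medians of cholesterol synthesis at -0.23 to -0.17 and of interferon-stimulated genes at 0.13 to 0.17. Without a slide term, 4 of 19 interferon-stimulated genes had an unadjusted p under 0.05.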

Other observations

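A fit of all 50 arrays, with more arrays behind each gene's spread, called 6 genes for the difference between the exposed and the control change from D90 to D180, all with a higher difference in exposed lungs. They were named after their values were seen. Dact1, Axin2, Bambi and Ephb3 are known as genes that respond to Wnt or related growth factor signals, Gata3 is a transcription factor of T cells and epithelium, and Dusp5 is a phosphatase that limits ERK. In the fit of the 20 late arrays none of them passed, with differences of changes of 1.21 for Dact1, 0.73 for Axin2, 0.61 for Bambi, 0.69 for Ephb3, 1.20 for Gata3 and 0.92 for Dusp5 (adjusted p from 0.056 to 0.21 by limma). Each had a lower mean at D180 than at D90 in control lungs, from -0.35 for Ephb3 to -0.80 for Dact1, and a higher mean at D180 in exposed lungs, from 0.17 for Bambi to 0.46 for Gata3. Dact1 was at 9.46 to 10.04 in control rats of D90 and at 8.56 to 9.22 in control rats of D180, with no overlap. In exposed rats it was at 8.88 to 9.49 at D90 and at 9.25 to 9.79 at D180. Against controls, Dact1 was 0.55 lower at D90 (adjusted p = 0.018) and 0.65 higher at D180 (adjusted p = 0.0098). The immediate early list was also highest in control rats of D90, and its part in these values was not tested.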
